A study of Mus musculus with 12 samples.

Results

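Runx1, Runx2, Runx3, Cbfb, Runx1t1, Cbfa2t2 and Cbfa2t3 are the genes of the normal proteins from which the leukaemia fusion protein AML1-ETO is built, together with their closest relatives. They were picked by symbol in the array's probe annotation, and 6 of the 7 had a row, 1 each, among 16860 genes tested. Runx2 had no row under its own name and was not analysed here. All 6 rows lay above the filter on dim rows (a mean log2 signal of 4.70).

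RUNX proteins bind DNA through their Runt domain and work as heterodimers with CBFβ, the product of Cbfb, which does not touch DNA itself but strengthens the binding. Runx1 is required for blood stem cells to form in the embryo and for the maturation of myeloid cells and platelets, Runx3 acts mainly in lymphocytes and Runx2 in bone. Runx1t1 (ETO), Cbfa2t2 (MTGR1) and Cbfa2t3 (ETO2) encode the ETO family of corepressors, which are brought to DNA by other factors and carry histone deacetylases with them. In AML1-ETO, known from human acute myeloid leukaemia, the Runt domain of RUNX1 is joined to nearly the whole of ETO.

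The cells were mouse bone marrow cells enriched for Kit, with floxed Tet2 alleles and a tamoxifen-activated Cre (CreER), and every group carried AML1-ETO with GFP from the MigR1 retrovirus. Tet2 codes for a dioxygenase that turns methylcytosine into its hydroxymethyl form. After 3 rounds of replating, Tet2-/- cells had received 4-hydroxytamoxifen (4-OHT, 200 nM) and Tet2fl/fl cells ethanol for 2 passages (4 days), and GFP+ CD11b- Gr1- CD16/32+ cells were sorted. The groups were Tet2-/- cells at passage 10, Tet2fl/fl cells at passage 10, Tet2-/- cells at passage 2 and Tet2fl/fl cells at passage 2, with 3 arrays and replicate numbers 1 to 3 in each. Tet2fl/fl cells held CreER but were given no 4-OHT, so what 4-OHT or Cre activity did and what Tet2 loss did cannot be told apart. Whether arrays of a group stem from separate cultures is not stated, and p-values then reflect only the spread among these arrays, which may be technical. The sources used here give no age or strain of the animals and no species of the AML1-ETO cDNA.

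Values are log2 array signals, 1 per gene and array, and differences are in log2 units. The medians of the 12 arrays lay between 5.57 and 5.68, and Pearson's r between any 2 arrays of 1 group was 0.984 to 0.991. The Tet2 row gave 9.64 to 9.93 in Tet2-/- and 9.80 to 9.93 in Tet2fl/fl cells at passage 10, and 9.89 to 9.98 in Tet2-/- and 9.89 to 10.08 in Tet2fl/fl cells at passage 2. The groups overlapped at both passages, and 1 value for the whole gene does not check a deletion. Of the 9 markers of immature myeloid cells all were measured, with a mean signal between 10.41 and 11.47 on every array. Of these, Kit, the receptor gene for which the cells had been enriched, fell by 0.82 in the average genotype effect (limma adjusted p = 0.0220). In that effect 1.72% of all genes passed. Kit was the only 1 of the 9 markers to pass, and 4 of them rose while 5 fell. Cebpa rose most (0.52) and did not pass with or without the block. The eosinophil markers (4 of 6 measured) averaged 7.04 to 9.01 in Tet2-/- and 7.54 to 9.72 in Tet2fl/fl cells at passage 10, and 7.56 to 8.05 in Tet2-/- and 9.60 to 10.05 in Tet2fl/fl cells at passage 2. The mast cell and basophil markers (8 of 8) averaged 10.83 to 11.10 and 11.28 to 11.78 in these groups at passage 10, and 10.96 to 11.34 and 11.33 to 11.51 at passage 2. The genotypes thus did not overlap in the eosinophil average at passage 2 or in the mast cell average at passage 10. In that mast cell comparison Fcer1a (-2.48) and Tpsab1 (-1.72) differed most and passed with the block only, while Cpa3 (-0.001), Ms4a2 (-0.04) and Mcpt8 (0.05) lay near 0 and Prss34 was at 0.38. The megakaryocyte markers (4 of 6) averaged 8.31 to 9.20 in Tet2-/- and 8.33 to 9.26 in Tet2fl/fl cells at passage 10, and 7.89 to 8.24 in Tet2-/- and 7.97 to 8.13 in Tet2fl/fl cells at passage 2. The passages did not overlap in that average, in which Ppbp rose by 1.75 (average passage effect, limma adjusted p = 0.0140) and Itga2b (0.31), Pf4 (0.48) and Gp9 (0.13) did not pass without the block. The erythroid markers (3 of 6) did not overlap between the genotypes at passage 2, with 7.19 to 7.33 in Tet2-/- and 7.42 to 7.58 in Tet2fl/fl cells. The mature neutrophil markers (8 of 8) stood at 6.06 to 6.21 in Tet2-/- and 5.46 to 6.75 in Tet2fl/fl cells at passage 10, and at 6.40 to 6.99 and 6.35 to 7.56 at passage 2. In Tet2-/- cells the passages did not overlap in this average, with S100a8 (-2.72) and S100a9 (-1.73) past the threshold with the block only (limma adjusted p = 0.0208 and 0.0293). In that comparison 5 of the 8 genes fell and 3 rose. Ly6g (1.15) and Mmp9 (0.26) were among those that rose, and neither passed with or without the block. The macrophage markers (6 of 6) stood between 7.26 and 7.68 and those of osteoblasts and chondrocytes (4 of 5) between 5.69 and 6.05 on every array. The part of such cells in the results below was not tested. In bulk RNA, fewer cells of a type and less RNA per cell cannot be told apart.

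The promoters of the Runx genes share a stretch of sequence. In RefSeq's promoter windows of GRCm38.p6 (250 bases before to 50 after an annotated transcription start), 6 of the 7 genes matched, with 9 windows. Runx1, Runx3 and Cbfa2t3 had a distal and a proximal window, and Runx1t1 had none. The windows are printed 5′ to 3′ on the gene's strand, with the RUNX motif TGTGGT (or TGCGGT), read on either strand, in capitals. On the opposite strand TGTGGT reads ACCACA.
Runx1 distal promoter, chr16:92826025-92826324, minus strand: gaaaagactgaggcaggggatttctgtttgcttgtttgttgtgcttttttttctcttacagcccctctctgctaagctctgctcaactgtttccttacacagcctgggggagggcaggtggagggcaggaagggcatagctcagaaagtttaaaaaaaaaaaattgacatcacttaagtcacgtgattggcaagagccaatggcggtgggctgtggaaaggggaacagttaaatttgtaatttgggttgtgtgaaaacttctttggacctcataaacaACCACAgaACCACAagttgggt
Runx2 promoter, chr17:44814578-44814877, minus strand: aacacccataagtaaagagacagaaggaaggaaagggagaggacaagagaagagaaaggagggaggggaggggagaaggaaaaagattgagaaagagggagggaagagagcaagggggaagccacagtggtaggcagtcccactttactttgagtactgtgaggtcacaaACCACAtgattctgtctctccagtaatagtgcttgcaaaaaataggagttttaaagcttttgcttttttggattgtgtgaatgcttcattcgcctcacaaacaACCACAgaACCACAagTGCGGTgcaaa
Runx3 distal promoter, chr4:135120395-135120694, plus strand: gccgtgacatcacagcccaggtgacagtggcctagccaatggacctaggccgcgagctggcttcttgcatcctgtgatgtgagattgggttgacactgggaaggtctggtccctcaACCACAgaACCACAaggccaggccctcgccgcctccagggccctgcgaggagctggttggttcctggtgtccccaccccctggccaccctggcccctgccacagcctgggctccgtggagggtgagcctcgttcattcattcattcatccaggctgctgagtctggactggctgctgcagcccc
Runx1 proximal promoter, chr16:92697280-92697579, minus strand: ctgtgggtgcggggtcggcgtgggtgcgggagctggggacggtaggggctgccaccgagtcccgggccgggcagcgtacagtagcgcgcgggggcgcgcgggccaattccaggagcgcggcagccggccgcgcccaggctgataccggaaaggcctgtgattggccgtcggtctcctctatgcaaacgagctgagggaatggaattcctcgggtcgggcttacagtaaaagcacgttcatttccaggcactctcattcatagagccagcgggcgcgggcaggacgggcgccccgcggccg
The first 3 are shown because each holds a pair of ACCACA motifs inside 1 shared run of 18 bases, and the fourth as the contrast within the same gene. That run, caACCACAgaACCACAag, begins 27 bases after the start in Runx1, 22 bases after it in Runx2 and 136 bases before it in Runx3. The Runx2 window held 1 more ACCACA and 1 TGCGGT outside the run. The run was found in 4 of 32851 promoter windows: those 3 and that of the long noncoding RNA gene Gm16225, which lies beside Runx3 on chromosome 4. Gm16225 ends at base 135120376 and Runx3 begins at base 135120645. The windows of these neighbours may therefore hold the same copy of the run, which was not checked. A pair of TGTGGT motifs on 1 strand with starts at most 12 bases apart, a search set after these sequences were seen, occurred in 0.107% of windows. TGTGGT alone occurred in 16.8% and TGCGGT in 6.5%.

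The proximal Runx1 window held neither motif and 35 CG dinucleotides, against 2 CG in the distal one. The proximal Runx3 window had 45 CG and the distal one 8, where the median window had 7. The single windows of Cbfb and Cbfa2t2 held 30 and 51 CG and no RUNX motif. The distal window of Cbfa2t3 had 10 CG and 1 TGCGGT, and its proximal window 53 CG and neither motif. The letters AGATAA, bound by GATA factors, were in none of the 9 windows, against 11.2% of all. The E boxes CAGCTG and CAGGTG occurred in 16.3% and 20.2% of all windows; the distal Cbfa2t3 window held 2 CAGCTG, and CAGGTG occurred once each in the distal Runx1 and Runx3 and the proximal Cbfa2t3 windows. These matches describe letters only, and the array gives 1 value per gene, not 1 per promoter.

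**Figure D1:**
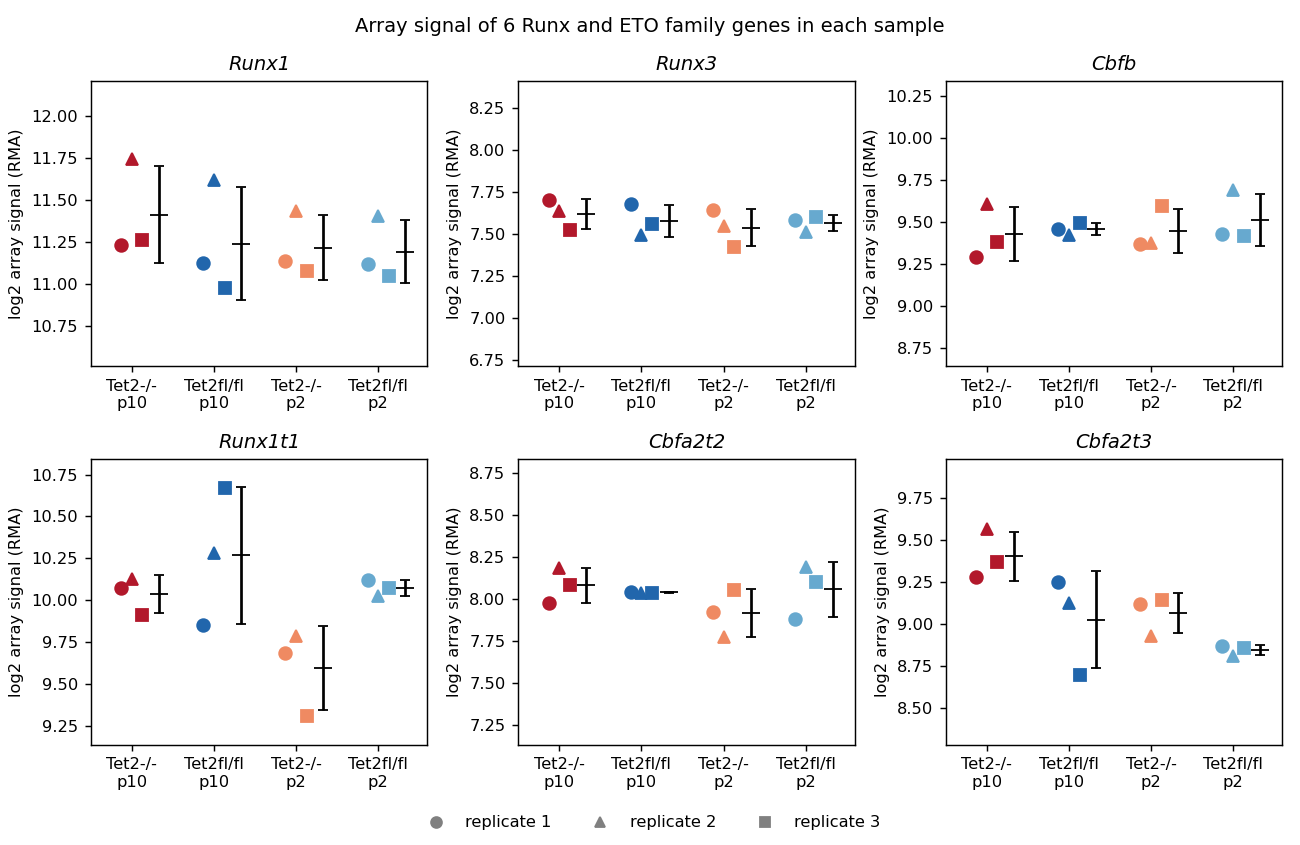
Log2 array signal of 6 Runx and ETO family genes on each of the 12 arrays, by group, with the symbol showing the replicate number and black bars the mean ± SD (n = 3). All panels span the same height in log2 units. Replicate 2 is the highest Runx1 array in every group, Runx1t1 is lowest in Tet2-/- cells at passage 2 (9.31 to 9.79) and Cbfa2t3 is highest in Tet2-/- cells at passage 10 (9.28 to 9.57).

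No Runx or ETO family gene passed the test for genotype or passage. Of the 6, 0 had an adjusted p (limma, Benjamini-Hochberg over all genes) of 0.05 or below in any of the 7 comparisons, with or without the replicate number as a block. For Tet2-/- against Tet2fl/fl, 0.225% of all genes passed at passage 10 and 0.00593% at passage 2 (1.31% and 0.409% with the block). For passage 10 against passage 2, 2.98% passed in Tet2-/- and 0% in Tet2fl/fl cells (7.94% and 0.0415% with the block). For the average of both genotype effects, 1.72% of all genes passed (5.41% with the block), for the average of both passage effects 7.77% (13.2%), and for the change of the genotype effect between passages (the interaction) 0% (0.00593%). At an unadjusted p under 0.05 the count of the 6 was 1 for genotype at passage 10 (Cbfa2t3; 10.6% of all genes) and 1 at passage 2 (Runx1t1; 9.95%). It was 2 for passage in Tet2-/- cells (Runx1t1 and Cbfa2t3; 21.6%), 0 for passage in Tet2fl/fl cells (10.2%) and 0 for the interaction (3.22%). The same 2 genes made up the count for the average genotype effect (16.1%) and for the average passage effect (26.8%). With the block the count for passage in Tet2-/- cells was 3, Runx1 being added, and the other counts were unchanged. The share of all genes under this unadjusted cut was not computed with the block. The comparisons share arrays, so these counts are not independent of each other.

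Runx1, the RUNX gene of myeloid cells, followed the replicate number far more than the group. Its signal was 11.24, 11.75 and 11.26 in Tet2-/- and 11.13, 11.62 and 10.98 in Tet2fl/fl cells at passage 10 (replicates 1, 2 and 3). At passage 2 the signal was 11.14, 11.44 and 11.08 in Tet2-/- and 11.12, 11.41 and 11.05 in Tet2fl/fl cells. Replicate 2 was the highest array of each group: the 4 arrays with that number spanned 11.41 to 11.75, above the 11.12 to 11.24 of number 1 and the 10.98 to 11.26 of number 3. The groups overlapped in all 4 pairwise comparisons.

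The replicate number took 79.4% of the sum of squares of Runx1 over the 12 arrays and the 4 groups took 14.5%, which left 6.2%. For 99.5% of all genes the share of the replicate number was lower, and its median over all genes was 17.2%. From highest to lowest the group means were 11.42 ± 0.29 (Tet2-/- passage 10), 11.24 ± 0.34 (Tet2fl/fl passage 10), 11.22 ± 0.19 (Tet2-/- passage 2) and 11.19 ± 0.19 (Tet2fl/fl passage 2; SD, n = 3 each), so that no neighbours in this order differed beyond their spread. Within replicate numbers Tet2-/- was above Tet2fl/fl in 6 of 6 pairs, by 0.11, 0.12 and 0.29 at passage 10 and by 0.01, 0.03 and 0.02 at passage 2. The difference was 0.17 at passage 10 (95% interval -0.24 to 0.59, limma adjusted p = 0.832) and 0.02 at passage 2 (-0.39 to 0.43, limma adjusted p = 0.982). With the block the intervals were -0.0091 to 0.36 and -0.16 to 0.20, with limma adjusted p = 0.375 and 0.937. For passage 10 against passage 2 in Tet2-/- cells the difference was 0.20 (limma adjusted p = 0.576, with the block 0.159). Its 95% interval was -0.21 to 0.61 without the block and 0.02 to 0.38 with it. Whether the probes of this row also detect the fusion's transcript, which holds the Runt domain of RUNX1, is stated in none of the sources used here, so signal of the gene and of the retrovirus cannot be told apart.

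Runx3, the RUNX gene best known from T and NK cells, was the member with the narrowest range, 0.28 over the 12 arrays. It stood at 7.70, 7.63 and 7.52 in Tet2-/- and 7.68, 7.49 and 7.56 in Tet2fl/fl cells at passage 10. At passage 2 it stood at 7.64, 7.55 and 7.42 in Tet2-/- and 7.58, 7.51 and 7.60 in Tet2fl/fl cells. All groups overlapped. The group means ran from 7.62 (Tet2-/- passage 10) over 7.58 (Tet2fl/fl passage 10) and 7.56 (Tet2fl/fl passage 2) to 7.54 (Tet2-/- passage 2), each with an SD of 0.05 to 0.11. The genotype difference was 0.04 at passage 10 (-0.14 to 0.23, limma adjusted p = 0.927) and -0.03 at passage 2 (-0.21 to 0.16, limma adjusted p = 0.944). These 95% intervals hold no genotype difference above 0.23 in size. Replicate 1 was the highest array in 3 of the 4 groups, and the replicate number took 47.6% of the sum of squares. The T cell markers (5 of 7 measured) averaged 6.26 to 6.29 in Tet2-/- and 6.16 to 6.28 in Tet2fl/fl cells at passage 10, and 6.04 to 6.18 and 5.92 to 6.24 at passage 2.

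Cbfb, the partner subunit on which all RUNX proteins and AML1-ETO rely, stayed within 0.40 over the 12 arrays. Its signal was 9.29, 9.60 and 9.38 in Tet2-/- and 9.45, 9.42 and 9.49 in Tet2fl/fl cells at passage 10. At passage 2 Cbfb had 9.37, 9.37 and 9.59 in Tet2-/- and 9.43, 9.69 and 9.41 in Tet2fl/fl cells. Single arrays stood out (9.60, 9.59 and 9.69) and belonged to 3 different groups. The group means ran in the order 9.42 (Tet2-/- passage 10), 9.44 (Tet2-/- passage 2), 9.46 (Tet2fl/fl passage 10) and 9.51 (Tet2fl/fl passage 2), steps that were smaller than the largest SD of 0.16. The genotype difference was -0.03 at passage 10 (-0.27 to 0.20, limma adjusted p = 0.964) and -0.06 at passage 2 (-0.30 to 0.17, limma adjusted p = 0.888). Of the sum of squares of Cbfb, the 4 groups took 8.0%.

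**Figure D2:**
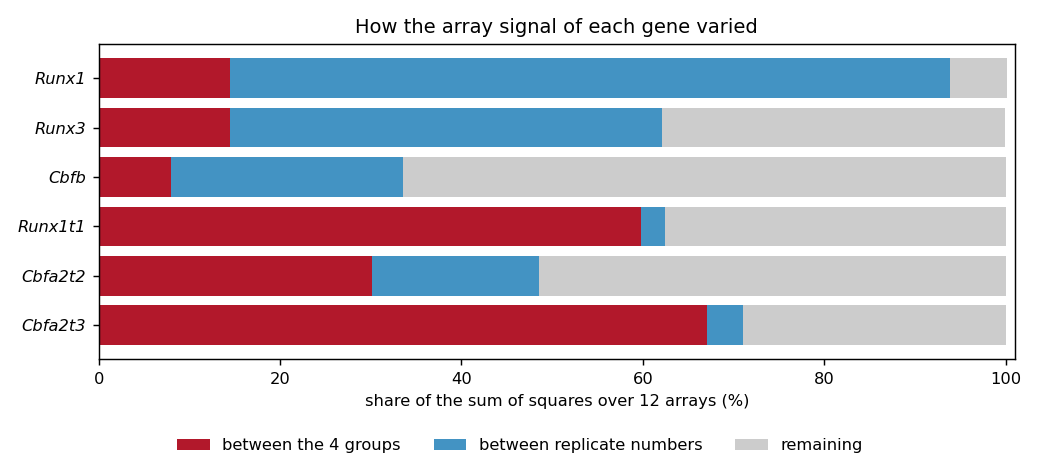
Share of the sum of squares over 12 arrays (horizontal axis, percent) that lay between the 4 groups (red), between the 3 replicate numbers (blue) and in neither (grey), for 6 Runx and ETO family genes. Replicate numbers take 79.4% for Runx1, while groups take 59.8% for Runx1t1 and 67.1% for Cbfa2t3. Over all genes the median share is 17.2% for replicate numbers and 39.2% for groups. The group share is lower than that of Runx1t1 for 78% of genes and lower than that of Cbfa2t3 for 85.8%.

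Runx1t1, which encodes ETO itself, had the widest range of the 6 genes, 1.36, and its lowest signals in Tet2-/- cells at passage 2. It stood at 10.07, 10.13 and 9.91 in Tet2-/- and 9.85, 10.28 and 10.67 in Tet2fl/fl cells at passage 10. At passage 2 it stood at 9.68, 9.79 and 9.31 in Tet2-/- and 10.12, 10.03 and 10.07 in Tet2fl/fl cells. The genotypes did not overlap at passage 2, as for 15.3% of all genes, and overlapped at passage 10, where the Tet2fl/fl arrays lay on both sides of the Tet2-/- arrays.

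The Runx1t1 difference between the genotypes was -0.48 ± 0.18 (SE) at passage 2 (95% interval -0.87 to -0.08), with a limma adjusted p of 0.413 (0.300 with the block). At passage 10 it was -0.23 ± 0.18 (-0.62 to 0.16, limma adjusted p = 0.737). Tet2-/- was below Tet2fl/fl in 5 of 6 same-numbered pairs, the exception being replicate 1 at passage 10 (0.22). Passage 10 against passage 2 gave 0.44 in Tet2-/- cells (0.05 to 0.84, limma adjusted p = 0.184), with no overlap, as for 28.3% of all genes, and 0.20 in Tet2fl/fl cells (-0.20 to 0.59, limma adjusted p = 0.716). That comparison and the genotype comparison at passage 2 share the 3 low arrays. The interaction was 0.25 (-0.31 to 0.80, limma adjusted p = 0.999). From lowest to highest, the group means were 9.60 ± 0.25 (Tet2-/- passage 2), 10.04 ± 0.11 (Tet2-/- passage 10), 10.07 ± 0.05 (Tet2fl/fl passage 2) and 10.27 ± 0.41 (Tet2fl/fl passage 10; SD, n = 3 each). The upper 3 did not differ beyond their spread.

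The average genotype effect on Runx1t1 was -0.35 ± 0.13 (limma adjusted p = 0.195). It passed only without replicate 1 of Tet2fl/fl cells at passage 10 (9.85), at -0.46 with a limma adjusted p of 0.0430. Over single left-out arrays it ran from -0.46 to -0.25, and with replicate numbers left out it shrank to as little as -0.15. The average passage effect was 0.32 (limma adjusted p = 0.138), and without that array 0.42 with a limma adjusted p of 0.0379. Over single left-out arrays the average passage effect ran from 0.22 to 0.42. At passage 10, the difference of -0.23 became 0.03 or as low as -0.46 when single arrays or replicate numbers were left out. AML1-ETO contains nearly all of ETO, and whether this row's probes detect the retroviral transcript is likewise not stated. Changes of Runx1t1 and changes in the level of the fusion transcript therefore cannot be told apart. At passage 2 the eosinophil averages, given above, were also lower in Tet2-/- cells and did not overlap between the genotypes, nor did the erythroid averages. Within Tet2-/- cells at passage 2, replicate 3 had the lowest Runx1t1 (9.31) but the highest signal of the eosinophil gene Epx (8.33). For passage in Tet2fl/fl cells Runx1t1 rose by 0.20, while the median difference of the eosinophil genes was -1.04. In Tet2-/- cells the passages did not overlap in the megakaryocyte, mature neutrophil, erythroid, T cell, and osteoblast and chondrocyte averages. Of single genes, 28.3% did not overlap in this comparison. The erythroid averages were barely apart, reaching 7.3318 at passage 2 and starting at 7.3322 at passage 10. The osteoblast and chondrocyte averages and the T cell genes other than Thy1 were dim, near or below the array medians (5.57 to 5.68). The part of these lists was not tested.

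Cbfa2t2, the ETO family gene known as MTGR1, stayed within 0.42 over the 12 arrays. Its signal was 7.98, 8.19 and 8.09 in Tet2-/- and 8.04 on all 3 arrays of Tet2fl/fl cells at passage 10. At passage 2 Cbfa2t2 had 7.92, 7.77 and 8.06 in Tet2-/- and 7.88, 8.19 and 8.10 in Tet2fl/fl cells. All groups overlapped. The means ran from 8.08 (Tet2-/- passage 10) over 8.06 (Tet2fl/fl passage 2) and 8.04 (Tet2fl/fl passage 10) to 7.92 (Tet2-/- passage 2), with SDs of up to 0.16. The genotype difference was 0.04 at passage 10 (-0.18 to 0.27, limma adjusted p = 0.938) and -0.14 at passage 2 (-0.36 to 0.08, limma adjusted p = 0.691).

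Cbfa2t3, which encodes ETO2, a corepressor that works with GATA1, TAL1 and LDB1 in erythroid and megakaryocytic cells, was the member closest to passing for genotype. Its signal was 9.28, 9.57 and 9.37 in Tet2-/- and 9.25, 9.13 and 8.70 in Tet2fl/fl cells at passage 10. At passage 2 it was 9.12, 8.93 and 9.14 in Tet2-/- and 8.87, 8.81 and 8.86 in Tet2fl/fl cells. The genotypes did not overlap at either passage (16.4% of all genes at passage 10), though at passage 10 replicate 1 of both genotypes lay only 0.03 apart. Tet2-/- was above Tet2fl/fl in 6 of 6 same-numbered pairs.

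The Cbfa2t3 genotype difference was 0.38 ± 0.13 at passage 10 (95% interval 0.09 to 0.67, a fold of 1.30), with a limma adjusted p of 0.324 (0.227 with the block). At passage 2 it was 0.22 ± 0.13 (-0.07 to 0.51, limma adjusted p = 0.631), and the interaction was 0.16 (-0.25 to 0.57, limma adjusted p = 0.999). The average genotype effect was 0.30 ± 0.09 (0.09 to 0.50), a fold of 1.23, at a limma adjusted p of 0.137 (block: 0.109). Of all genes, 92.1% had a smaller average genotype effect in size. Passage 10 against passage 2 gave 0.34 in Tet2-/- cells (limma adjusted p = 0.168), with no overlap, and 0.18 in Tet2fl/fl cells (limma adjusted p = 0.650), where all 6 members' groups overlapped (14.5% of all genes did not). For Cbfa2t3 the average passage effect was 0.26 (limma adjusted p = 0.109), and without replicate 3 of Tet2fl/fl cells at passage 10 (8.70) it was 0.34 with a limma adjusted p of 0.0391. Over single left-out arrays the average passage effect ran from 0.20 to 0.34 and the average genotype effect from 0.22 to 0.35. The group means were 9.41 ± 0.15 (Tet2-/- passage 10), 9.07 ± 0.12 (Tet2-/- passage 2), 9.03 ± 0.29 (Tet2fl/fl passage 10) and 8.85 ± 0.03 (Tet2fl/fl passage 2; SD, n = 3 each), and the middle 2 did not differ beyond their spread. For genotype, the mast cell and basophil average at passage 10 and the eosinophil and erythroid averages at passage 2 did not overlap either. Nor did the averages of the 5 lists named for Runx1t1, for passage in Tet2-/- cells. At passage 2 all 4 measured eosinophil genes and 2 of 3 erythroid genes were lower in Tet2-/- cells. All measured megakaryocyte, erythroid, T cell, and osteoblast and chondrocyte genes had positive passage differences in Tet2-/- cells. Of these genes only Ppbp and Gata1 passed there, and with the block only. In Tet2fl/fl cells all megakaryocyte and T cell genes, 3 of 4 osteoblast and chondrocyte genes and 1 of 3 erythroid genes had positive passage differences too. The mast cell and mature neutrophil lists held genes of both directions, as given above. The part of these lists was not tested.

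**Figure D3:**
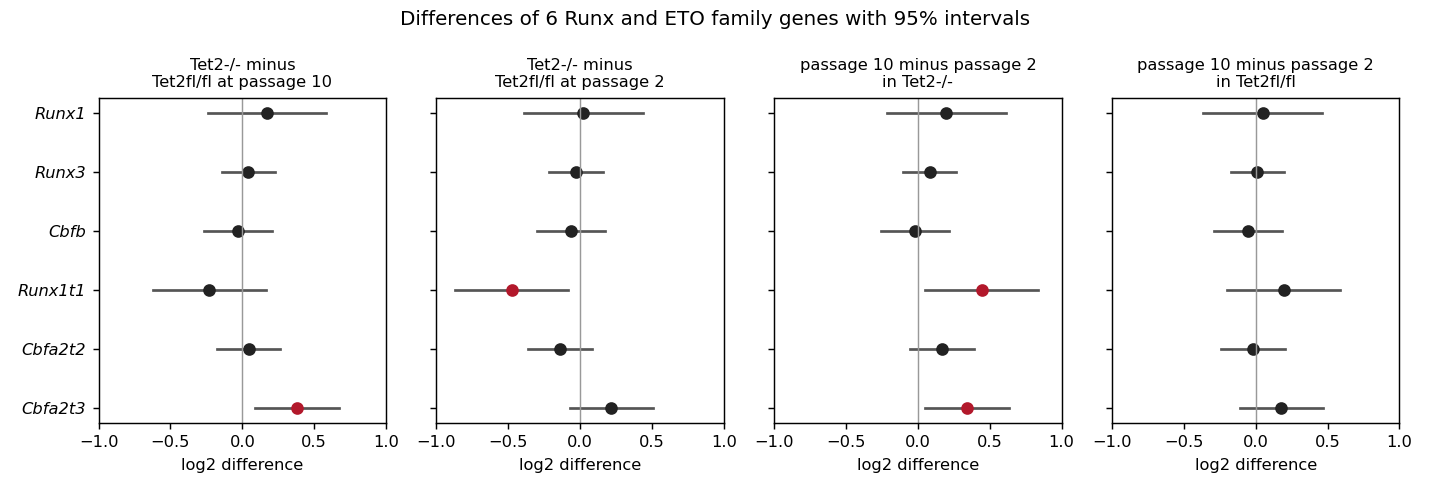
Log2 differences of 6 Runx and ETO family genes (dots) for both genotype comparisons and both passage comparisons, on 1 horizontal scale. Lines are 95% intervals from limma without the replicate block. Red marks an unadjusted p under 0.05, which 4 of the 24 differences reached. The intervals of Runx1, Runx3, Cbfb and Cbfa2t2 hold 0 in all 4 panels, and those of Runx3 are the narrowest.

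As a family, the 6 genes moved little and in no common direction between the genotypes. At passage 10, 4 of 6 differences were positive with a median of 0.04, and at passage 2, 2 of 6 with a median of -0.05, where the medians of all genes were -0.0085 and -0.0029. The median size of the difference was 0.11 for the members and 0.10 for all genes at passage 10, and 0.10 for both at passage 2. For passage in Tet2-/- cells 5 of 6 were positive with a median of 0.18, against 0.04 for all genes, and in Tet2fl/fl cells 4 of 6 with a median of 0.03 (0.03 for all genes). The interaction was positive for 6 of 6, at 0.03 to 0.25 with a median of 0.16 (all genes: -0.0055), and each had a limma adjusted p of 0.999. Within the ETO family Runx1t1 and Cbfa2t3 had opposite average genotype effects, -0.35 and 0.30, and neither passed.

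Genes with provisional names, such as Gm or Rik names, were left out of a ranking by similarity to each member. The genes whose signal ran most like each member over the 12 arrays were then those with the highest positive Pearson's r. They are a description without a test, since arrays share replicate numbers and groups. For Runx1 they were Tarm1 (0.93), Sv2a (0.92) and Igbp1b (0.92), and for Runx3 Elac1 (0.90), Slc2a8 (0.82) and Clec2d (0.82). For Cbfb they were Cox15 (0.94), Acy1 (0.91) and Gar1 (0.90). For Runx1t1 they were Gnaz (0.94), Nagk (0.93) and Pip5k1c (0.92), for Cbfa2t2 Uros (0.95), Higd2a (0.93) and Fam207a (0.91), and for Cbfa2t3 Lrrc51 (0.92), Sipa1l1 (0.91) and Relt (0.89). None of these 18 genes was another member, but with so many genes to pick from that absence says nothing about the family. Between members, r over the 12 arrays ran from -0.45 (Runx3 and Cbfb) to 0.65 (Cbfb and Cbfa2t2).

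The genes that AML1-ETO and RUNX1 work with were followed in 5 lists with 96 different genes, of which 87 were measured. For the proteins that form the AML1-ETO complex, 14 of 16 were measured. None passed in any comparison with or without the block. Unadjusted limma p-values under 0.05 numbered 0 for the average genotype effect (16.1% of all genes) and 3 for the average passage effect (26.8% of all genes). The median of the list was -0.02 for the average genotype effect, against -0.0038 for all genes. With the lowest unadjusted p-values of the list were Lmo2 (-0.42 between the genotypes at passage 10), the bridging factor of blood transcription complexes, and the deacetylase gene Hdac2 (-0.39 for passage in Tet2-/- cells). Of the RUNX cofactors and modifying enzymes, 22 of 23 were measured and none passed without the block. With it the ubiquitin ligase gene Wwp1 was lower for the average genotype effect (-0.31), and for the average passage effect the kinase gene Hipk2 was lower (-0.51) and the ubiquitin ligase gene Smurf1 higher (0.30).

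Of the 13 transcription factors that share sites with RUNX1, all were measured and none passed without the block. With it, Zfpm1, the GATA1 cofactor FOG1, was higher at passage 10 in Tet2-/- cells (0.48, limma adjusted p = 0.0512 and 0.0113 with the block), as was Gata1 (0.43, 0.0642 and 0.0437). Gata2 (-0.28) and the repressor gene Gfi1 (-0.29) were lower in the average genotype effect with the block (limma adjusted p = 0.0461 and 0.0318). Gata1 differed between the genotypes by 0.14 at passage 10 and -0.38 at passage 2, and its interaction of 0.52 did not pass (limma adjusted p = 0.999). In the average passage effect Zfpm1 (0.29) passed with the block only (limma adjusted p = 0.00958).

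Among RUNX1 target genes of blood cells, 23 of 27 were measured and 1 passed for the average genotype effect, where 1.72% of all genes did. Nfe2, the transcription factor gene needed for platelet release, had its lowest, median and highest signal at 8.07, 8.23 and 8.32 on the 6 Tet2-/- arrays, against 7.56, 7.66 and 8.10 on the 6 Tet2fl/fl arrays. One Tet2fl/fl array, passage 10 replicate 1, reached into the range of the Tet2-/- arrays. Nfe2 rose by 0.49 ± 0.08 (limma adjusted p = 0.0124), and lost the call when replicate number 2 or 3 was left out in all groups (limma adjusted p of 0.229 and 0.218). With the block Itga2b, the platelet integrin gene, was higher (0.35) and Gfi1 lower. The neutrophil elastase gene Elane had a passage difference of -1.69 in Tet2-/- cells (limma adjusted p = 0.192, and 0.0380 with the block), and the G-CSF receptor gene Csf3r one of -0.55 (0.420, and 0.0301 with the block). In the average passage effect, Elane (-1.53) and Itga2b (0.31) passed with the block only.

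Of the genes reported to respond to AML1-ETO, mostly in human cells, 21 of 24 were measured and 2 fell in the average genotype effect, in which 1.72% of all genes passed. Dusp6, a phosphatase that turns off ERK, had a signal of 10.12, 10.41 and 10.61 (lowest, median and highest) on the 6 Tet2-/- arrays, against 10.67, 10.89 and 11.10 on the 6 Tet2fl/fl arrays. The cyclin D2 gene Ccnd2 had 11.17, 11.28 and 11.38 on the Tet2-/- arrays, against 11.45, 11.66 and 11.80 on the Tet2fl/fl arrays. For both genes all 6 Tet2-/- arrays lay below all 6 Tet2fl/fl arrays. Dusp6 fell by 0.49 ± 0.09 and Ccnd2 by 0.36 ± 0.07, each with a limma adjusted p of 0.0247. The Dusp6 call was lost (limma adjusted p of 0.0534 to 0.0772) on dropping replicate 2 or 3 of Tet2-/- cells at passage 10, replicate 1 of Tet2-/- cells at passage 2, or replicate 1 or 2 of Tet2fl/fl cells at passage 2. The Ccnd2 call was lost (0.0589 to 0.0618) on dropping replicate 2 or 3 of Tet2-/- cells at passage 10, replicate 3 of Tet2fl/fl cells at passage 10, or replicate 2 of either genotype at passage 2. With any 1 replicate number dropped from all groups both had a limma adjusted p of 0.107 to 0.265. With the block the survival gene Bcl2 (0.39) and Id1 (0.29) were higher too, with limma adjusted p = 0.0212 and 0.0470.

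In the average passage effect 3 of these 21 genes passed, against 7.77% of all genes. The adhesion receptor gene Cd44 had a signal of 5.03, 5.86 and 6.79 (lowest, median and highest) at passage 10, against 6.76, 7.21 and 7.61 at passage 2, and fell by 1.31 ± 0.28 (limma adjusted p = 0.0233). Lat2, an adaptor of immune receptor signalling, had 11.04, 11.20 and 11.51 at passage 10, against 10.20, 10.62 and 11.14 at passage 2, and rose by 0.59 ± 0.15 (limma adjusted p = 0.0351). Pax5, the B cell factor gene, had 5.59, 5.93 and 6.02 at passage 10, against 5.37, 5.51 and 5.86 at passage 2, and rose by 0.34 ± 0.09 (limma adjusted p = 0.0475). These Pax5 signals were dim, near the array medians of 5.57 to 5.68. The B cell markers (4 of 6 measured, Pax5 being 1 of them) averaged 5.22 to 5.42 in Tet2-/- and 5.20 to 5.42 in Tet2fl/fl cells at passage 10, and 5.11 to 5.37 and 5.15 to 5.28 at passage 2. The Cd44 call was lost (limma adjusted p of 0.0551 to 0.0644) on dropping replicate 2 of Tet2-/- cells at passage 10 or replicate 3 of either genotype at passage 2. The Lat2 and Pax5 calls were each lost in 10 of the 12 fits that left out 1 array (0.0511 to 0.0811 for Lat2, 0.0665 to 0.116 for Pax5), and all 3 calls on dropping any 1 replicate number. The Pax5 call was also lost with no filter on dim rows (0.0628). With the block the catenin genes Ctnnb1 (0.21) and Jup (0.39) passed too, and in Tet2-/- cells alone the passage differences of Cd44 (-1.28), Lat2 (0.75), Jup (0.50) and Ctnnb1 (0.32) passed with the block only.

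**Figure D4:**
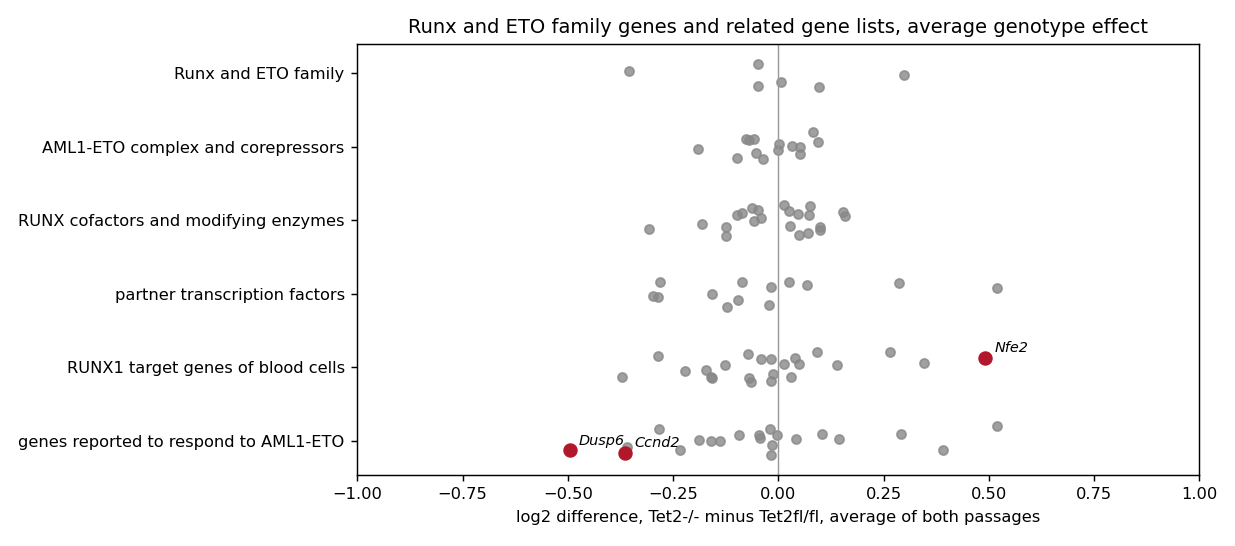
Average genotype effect (Tet2-/- minus Tet2fl/fl over both passages, log2 units, horizontal axis) of the Runx and ETO family genes and of 5 lists of related genes, 1 dot per gene, with vertical scatter only for legibility. Red dots passed at a limma adjusted p of 0.05: Nfe2 (0.49), Dusp6 (-0.49) and Ccnd2 (-0.36). A gene on more than 1 list appears in each.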

How the data were processed

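RNA of 12 samples was hybridised to Affymetrix Mouse Gene ST 2.0 arrays, 1 per sample. The deposited log2 values were made by the authors with RMA in Affymetrix Power Tools, per the submitters' processing notes, which give no versions. The table had 41345 rows, of which 23521 carried 1 gene symbol, 1814 several and 16010 none. Symbols were updated by gene ID for 23328 rows. Rows past the 30th percentile of mean signal (log2 4.70) were kept, and the brightest row stood for a gene, which left 16860 genes.

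One mean per group was fitted with limma 3.58.1 (R 4.3.3; 8 residual degrees of freedom, 6 with the replicate number as a block), with Benjamini-Hochberg adjustment over all genes and a threshold of 0.05. The scripts were tested on simulated data. Same-numbered arrays deviated together in each of 18 pairs (r of 0.201 to 0.517, against -0.369 to 0.0532 in 36 other pairs), so the numbers were taken to pair the samples. Deviations within a group cancel out, so the low r of the other pairs follows in part from the high r of the same-numbered. The main fit did not use the pairing, and intervals and p-values come from it unless the block is named. The precision is limited by 3 arrays per group.

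The genes named were all members and the 3 genes most positively correlated with each, with provisional names left out. In each list they were genes that passed in either fit or came nearest to it. Members and lists were chosen with earlier results of these data known. Alternatives were other filters, scalings, variance models, weights, blocks, row rules and left-out arrays. Promoters came from RefSeq (GRCm38.p6), used for names and sequences only.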

Additional observations from a re-analysis of the deposited data

How the results depend on the processing

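In 25 other settings, 1032 member values were recomputed. Of these, 970 kept their direction and their side of the threshold, 59 had another sign, none of them past the threshold, and 3 newly passed. With the replicate block no member passed either, and the Runx1 difference at passage 10 kept its value of 0.17 while its standard error was 0.08 in place of 0.19. The block changed no member's call. The count of members past the threshold ran from 0 to 1 over single left-out arrays for the average genotype effect and for the average passage effect. With equal array medians the sign turned for Runx1 at passage 2 (-0.0222), Cbfb for passage in Tet2-/- cells (0.017), Cbfa2t2 for passage in Tet2fl/fl cells (0.0038) and Runx3 in the average genotype effect (-0.0296). With quantile normalization it turned for Cbfa2t2 in that passage comparison (0.0315) and for Runx3 in the average genotype effect (-0.0045). With array weights it turned for Runx1 (-0.071) and Runx3 (0.0326) at passage 2, Runx1 for passage in Tet2fl/fl cells (-0.0404) and the Runx3 interaction (-0.0095). Leaving out single arrays turned signs as well. For the genotype difference at passage 10 the range was -0.1202 to 0.0361 for Cbfb and -0.008 to 0.0964 for Cbfa2t2. For the genotype difference at passage 2 the range was -0.0879 to 0.1295 for Runx1, -0.0793 to 0.029 for Runx3 and -0.1385 to 0.0244 for Cbfb. For the passage difference in Tet2-/- cells the range was -0.1095 to 0.054 for Cbfb. For the passage difference in Tet2fl/fl cells the range was -0.1423 to 0.1817 for Runx1, -0.0392 to 0.0526 for Runx3, -0.1012 to 0.035 for Cbfb, -0.0042 to 0.403 for Runx1t1 and -0.1075 to 0.0494 for Cbfa2t2. For the interaction the range was -0.0151 to 0.341 for Runx1, -0.0561 to 0.1075 for Cbfb and -0.0019 to 0.2739 for Cbfa2t3. For the average genotype effect the range was -0.0182 to 0.0359 for Runx3. For the average passage effect the range was -0.0815 to 0.0073 for Cbfb. Leaving out 1 replicate number in all groups gave these values of the other sign. For the genotype difference at passage 10 it was -0.007 for Runx3 (number 2), 0.0356 for Cbfb (number 1), 0.0084 for Cbfb (number 3), 0.0332 for Runx1t1 (number 3) and -0.0086 for Cbfa2t2 (number 2). For the genotype difference at passage 2 it was 0.0478 for Runx3 (number 3) and 0.0609 for Cbfb (number 2). For the passage difference in Tet2-/- cells it was 0.0087 for Cbfb (number 1) and 0.076 for Cbfb (number 3). For the passage difference in Tet2fl/fl cells it was -0.0354 for Runx1 (number 2), -0.0313 for Runx3 (number 1), 0.0519 for Cbfb (number 2), -0.0041 for Runx1t1 (number 3), 0.05 for Cbfa2t2 (number 2) and 0.0048 for Cbfa2t2 (number 3). For the interaction it was -0.1979 for Cbfb (number 2) and -0.0071 for Cbfa2t2 (number 2). For the average genotype effect it was -0.0092 for Runx3 (number 1) and -0.0339 for Runx3 (number 2). The cause was not tested. In the settings with left-out arrays, fewer arrays were fitted.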
